A study of Mus musculus with 24 samples.

Results

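Kidneys in which Pax8-driven Cre deletes Wt1 were set against kidneys that carry the same Cre allele and an intact Wt1 gene. Total RNA of whole kidneys at E18.5 was hybridised to single-colour bead arrays, with 3 arrays of Pax8+/Cre Wt1co/co kidneys and 3 arrays of Pax8+/Cre kidneys among the 24 arrays and 8 groups of the series. The mutant kidneys carry the conditional Wt1 allele on both chromosomes and 1 Pax8 allele with Cre in its place, and the Pax8+/Cre kidneys share that Pax8 allele, so neither group has 2 intact copies of Pax8. The labels name the strain C57BL/6, and the methods describe mixed C57BL/6 and 129Ola stock crossed back to C57BL/6 for a varying number of generations. Genes that were detected, with a p below 0.01 against the negative control beads, on 3 or more of these 6 arrays were taken, which gave 9600 of the 17951 genes in the files. No row for Wt1 was analysed here, so the deletion itself could not be checked on these arrays.

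Wt1 is a zinc finger transcription factor that is made early in the kidney lineage, in the metanephric and cap mesenchyme among other cells, and peaks in the podocytes of the glomerulus. In the nephron lineage, cap mesenchyme cells around the ureteric tips turn into epithelium, pass through the renal vesicle and the S-shaped body, and then form the podocytes and the successive segments of the tubule. In the study's lineage trace, the Pax8 driver marked scattered cells of the early metanephric mesenchyme, and strongly the condensed mesenchyme and the ureteric bud. The driver is thus also active in the ureteric bud, from which the collecting ducts arise. The authors place the loss of Wt1 with this driver just after the mesenchymal-to-epithelial transition. The comparison asks which genes of later nephron stages differ when Wt1 is lost at about the time of this transition. Because whole kidneys were used, fewer cells of a type and less RNA per cell cannot be told apart in any of the values below.

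Between 9210 and 9681 genes were detected on each of the 6 arrays. Replicate 1 of the mutant stood apart, with a mean intensity of 1243 units against 556 to 768 units on the other 5 arrays and a spread of the background of 17.1 units against 5.67 to 9.93. After normalization its correlation with the other mutant arrays was at least 0.986 and that with any Pax8+/Cre array at most 0.977. Replicate 1 of each group was the only array of its group with high Xist, the RNA that coats the inactive X chromosome, so each group holds 1 female and 2 male embryos. Of 31 marker genes of kidney cell types on the array 27 were tested, and Calb1, Ret and Kdr were detected on none of the 6 arrays. The markers of the proximal tubule, the loop of Henle, the cap mesenchyme, the stroma and the endothelium that were tested were above the detection limit in the Pax8+/Cre kidneys.

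Loss of Wt1 with this driver was accompanied by lower levels of podocyte and tubule genes and by higher levels of a smaller group of epithelial, chemokine and antigen presentation genes. Of the 9600 genes, 442 (4.6%) were higher and 629 (6.55%) lower in Pax8+/Cre Wt1co/co kidneys (limma, adjusted p below 0.05), 11.2% in all. Changes of over 2-fold were more one-sided, with 60 genes (0.625%) higher and 183 (1.91%) lower. Without mutant replicate 1, 603 genes were higher and 819 lower, and the changes of over 2-fold numbered 61 and 195. Without Pax8+/Cre replicate 3 the counts were 193 higher and 407 lower, and without Pax8+/Cre replicate 1, Pax8+/Cre replicate 2 or mutant replicate 2 the genes higher numbered 270, 205 and 226. Counts over gene lists moved too. Where leaving out 1 array lowered a count of 3 or more by more than 1.5 times, the lowest count is given beside it. Some smaller counts, which also moved, are given alone. The 3 mutant values and the 3 Pax8+/Cre values did not overlap for 3194 genes (33.3%), which is the share to keep in mind beside any gene below that is said not to overlap. The median change over all tested genes was 0.047 on the log2 scale. Levels below are normalized log2 intensities, in which the lowest detected gene of each array lies at 4.82 to 4.87, and levels of different genes are not compared.

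**Figure D1:**
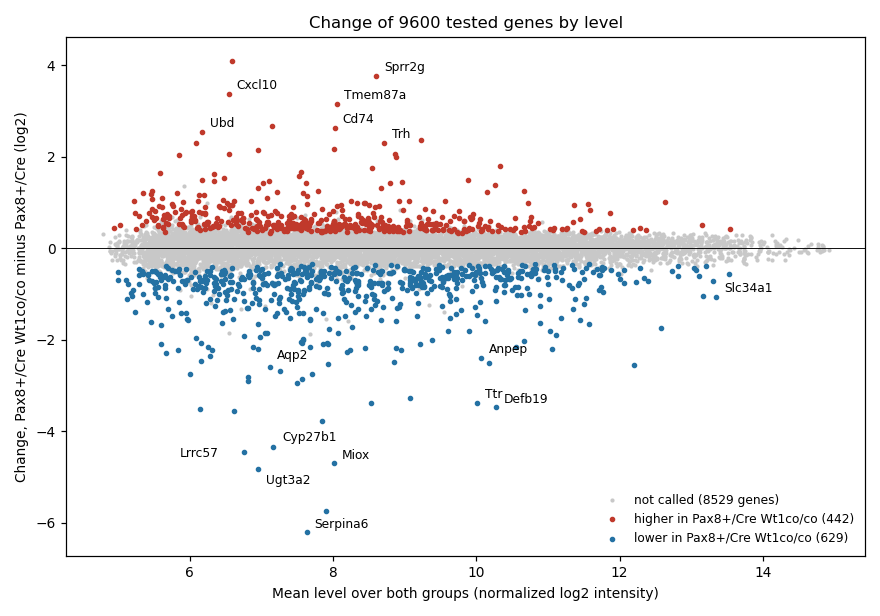
Each point is a tested gene, with its mean normalized log2 intensity over the 6 arrays on the x axis and the log2 change, Pax8+/Cre Wt1co/co minus Pax8+/Cre, on the y axis. Serpina6 lies lowest, at -6.21, a point that background limits in the mutant (at least 59.2-fold lower), and Sprr2g is among the highest points, with 3.77.

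Podocytes wrap the glomerular capillaries with foot processes, and genes of these cells were among the clearest falls. Ptpro, the receptor tyrosine phosphatase of the podocyte surface, had 6.05, 5.95 and 6.41 in mutant kidneys, against 9.09, 9.08 and 8.83 in Pax8+/Cre kidneys. All mutant values lie below all Pax8+/Cre values, and Ptpro was detected on no mutant array and was at least 7.27-fold lower (adjusted p = 3.1e-06). Podxl, the gene of the anionic coat protein podocalyxin, which endothelial cells also make, fell less far, by 1.58 on the log2 scale (SE 0.22, adjusted p = 0.0017), and remained detected on every mutant array.

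Of the slit diaphragm and foot process list, 22 of 32 members on the array were tested, and 9 were lower and 0 higher. The median change over the tested members was -0.35, beside 0.047 over all tested genes. Rhpn1, a scaffold protein of the podocyte cytoskeleton, averaged 5.80 ± 0.13 in mutant and 7.97 ± 0.16 in Pax8+/Cre kidneys (SD, n = 3 each). Sema3g, a secreted semaphorin of podocytes, averaged 5.81 ± 0.21 in mutant and 7.72 ± 0.20 in Pax8+/Cre kidneys. Nes, the intermediate filament nestin, fell by 0.75 and Clic5, a chloride channel protein that binds the cytoskeleton, by 0.43 (adjusted p = 0.0012 and 0.032). Dag1, the laminin receptor dystroglycan, did not pass the test, with a change of -0.31 (SE 0.11, adjusted p = 0.099). Actn4 and Cd151, which most cells express, lay closer to no change, with -0.19 and -0.04.

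The transcription factor genes of podocytes did not follow the filter genes. Of 10 tested members, 1 was higher and 0 lower, and the median change was 0.17. Hey1, a Notch target and early podocyte factor, rose by 0.38 (SE 0.09, adjusted p = 0.03), and was no longer called without mutant replicate 2 or any single Pax8+/Cre array. Tcf21, a podocyte and stromal factor, averaged 12.62 ± 0.20 in mutant and 12.45 ± 0.05 in Pax8+/Cre kidneys, and the groups overlap. Foxc2 had a change of -0.75 (SE 0.21, adjusted p = 0.051) and became a call when mutant replicate 1 was left out, where 2 list members were lower. Of 20 tested basement membrane genes, not all of them glomerular, 1 was higher and 2 were lower. Col4a3 and Col4a4, chains of the mature collagen IV network of the glomerulus, fell by 1.13 and 0.75 (adjusted p = 0.00064 and 0.012). Col4a1 and Col4a2, the chains of the embryonic network, had changes of -0.27 and -0.35 that did not pass, and Lamb3, a chain of epithelial laminin, rose by 1.06 (SE 0.17, adjusted p = 0.0043).

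**Figure D2:**
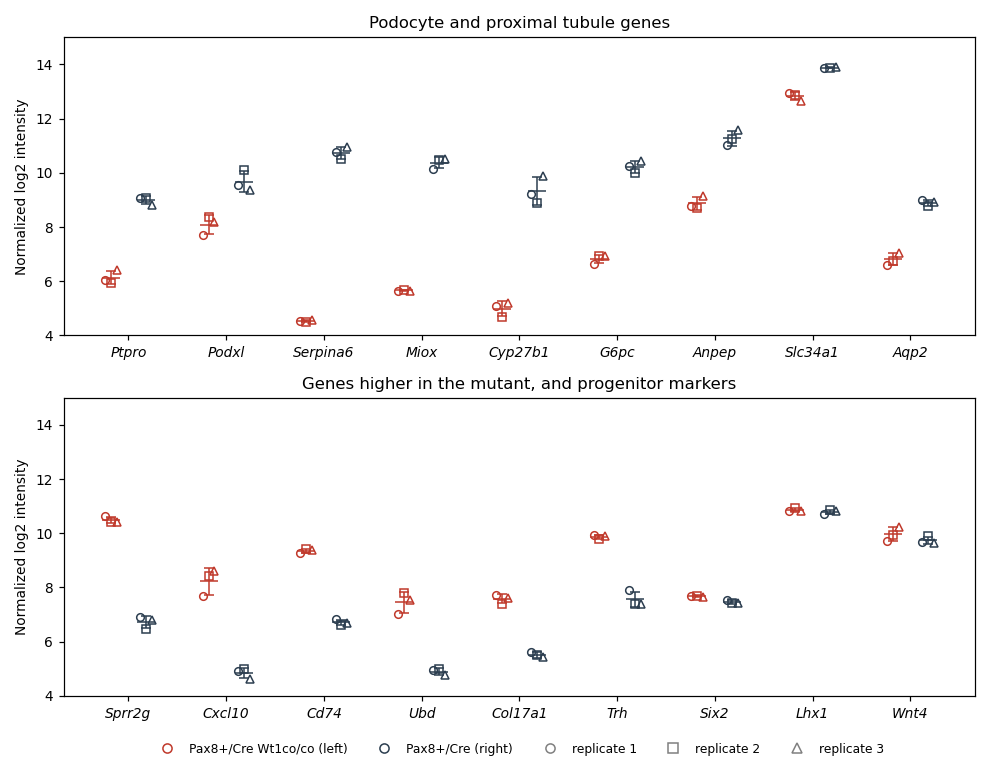
Normalized log2 intensity of 18 genes on each array, with Pax8+/Cre Wt1co/co to the left of Pax8+/Cre for each gene, symbols for replicates, and bars for the mean ± SD of 3 arrays. Serpina6, Miox and Cyp27b1 lie far lower in the mutant (at least 59.2-fold, a change of -4.71 and at least 19.5-fold), whereas Lhx1 and Wnt4 overlap between the groups.

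The proximal tubule, which recovers most of the filtered solute, accounted for many of the falls. Of the proximal tubule metabolism list, 23 of 40 tested members were lower and 0 higher, with a median change of -0.94. Miox, the enzyme that opens the ring of myo-inositol and is largely confined to the kidney, had 5.65, 5.69 and 5.65 in mutant kidneys, against 10.14, 10.46 and 10.51 in Pax8+/Cre kidneys. The mutant values are tight and far below every Pax8+/Cre value (change -4.71, SE 0.12, adjusted p = 3.9e-08). Cyp27b1, the enzyme that activates vitamin D, had 5.10, 4.68 and 5.19 in mutant kidneys, against 9.22, 8.88 and 9.90 in Pax8+/Cre kidneys. It was detected on no mutant array and was at least 19.5-fold lower (adjusted p = 6.5e-06). Cyp24a1, which inactivates vitamin D, was also lower, with 5.92 ± 0.54 in mutant and 8.60 ± 0.13 in Pax8+/Cre kidneys (SD, n = 3 each, adjusted p = 9.1e-05). Vdr, the vitamin D receptor gene, had a change of -0.24 that did not pass (SE 0.11, adjusted p = 0.19).

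The enzymes that release glucose and break down amino acids moved the same way. G6pc, the last step of glucose release, had 6.65, 6.91 and 6.93 in mutant kidneys, against 10.25, 9.99 and 10.43 in Pax8+/Cre kidneys. Prodh2, which degrades hydroxyproline, had 7.50, 7.50 and 7.31 in mutant kidneys, against 10.73, 10.72 and 10.67 in Pax8+/Cre kidneys. Neither gene overlaps between the groups, and both were detected on every array (changes -3.39 and -3.27, adjusted p = 9.9e-07 and 1.8e-07). Fbp1, another gluconeogenic enzyme, had a change of -2.50, and Ass1, which makes the precursor of arginine, of -2.21 (adjusted p = 3.1e-06 and 0.00012). Cyp2e1, a cytochrome P450 of small toxicants, was detected on no mutant array and was at least 5.76-fold lower.

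Among the 30 genes with the largest non-overlapping changes, 15 each way, the RefSeq promoter table for GRCm38.p6 holds 10 of those that rose and 8 of those that fell. Each window runs from 250 bases before to 50 bases after the start site. The letters GTTAATNAT, the core of sites bound by HNF1 factors, were searched on both strands, as were GCGTGGGAG and GCGGGGGCG, which zinc fingers of the WT1 and EGR kind bind. The HNF1 letters occur in 2 of the 8 falling and 0 of the 10 rising genes, and in 0.801% of all 32851 windows. GCGTGGGAG occurs in none of the 18 genes and in 0.472% of all windows, and GCGGGGGCG in none of the 18 and in 2.91%. The windows that hold the HNF1 letters belong to G6pc and Prodh2 and are shown with the match in capitals.
G6pc, chr11:101367466-101367765, plus strand: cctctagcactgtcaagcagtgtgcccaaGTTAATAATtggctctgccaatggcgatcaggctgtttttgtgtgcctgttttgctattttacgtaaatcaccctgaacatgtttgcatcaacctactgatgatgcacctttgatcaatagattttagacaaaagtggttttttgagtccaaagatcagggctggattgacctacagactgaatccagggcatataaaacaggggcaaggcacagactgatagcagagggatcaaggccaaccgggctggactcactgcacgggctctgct
Prodh2, chr7:30493408-30493707, plus strand: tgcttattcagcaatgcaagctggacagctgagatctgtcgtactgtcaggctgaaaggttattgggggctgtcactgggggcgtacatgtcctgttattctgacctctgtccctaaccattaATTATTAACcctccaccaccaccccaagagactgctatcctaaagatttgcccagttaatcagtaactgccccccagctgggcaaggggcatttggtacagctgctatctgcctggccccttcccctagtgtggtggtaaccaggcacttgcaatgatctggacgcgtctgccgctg

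In G6pc the match begins 221 bases before the start site and reads along the gene, and in Prodh2 it begins 127 bases before the start site and reads on the opposite strand. Over all genes called lower by more than 2-fold, 7 of the 133 with a window hold the HNF1 letters (5.26%), which adds Afm, Afp, F13b, Tmem27 and Ugt1a10, and 1 of the 41 called higher by more than 2-fold does (C4bp), beside 49 of 7366 tested genes (0.665%). This wider count was made after the values were seen, and a match describes letters, not binding. Hnf4a and Nr1h4, nuclear receptor genes of the proximal tubule, fell by 0.61 and 0.75 (adjusted p = 0.004 and 0.0019), and they were the 2 members called among 7 tested proximal tubule transcription factors.

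Many transport genes of the same segment were lower. Of the solute carrier list, 25 of 39 tested members were lower and 1 higher, with a median change of -0.84. Slc16a4, a monocarboxylate carrier, averaged 6.67 ± 0.26 in mutant and 9.19 ± 0.06 in Pax8+/Cre kidneys, and Slc22a2, the basolateral cation carrier, 6.54 ± 0.23 in mutant and 8.61 ± 0.15 in Pax8+/Cre kidneys (SD, n = 3 each). Slc22a6, the organic anion carrier of the basolateral membrane, fell by 1.90 (SE 0.13, adjusted p = 2.6e-05). Slc13a3, the dicarboxylate carrier, and Slc5a2, the glucose carrier of the early proximal tubule, were detected on no mutant array, where they were lower by at least 5.08-fold and by at least 1.77-fold. Slc34a1, the main phosphate carrier, had 12.95, 12.85 and 12.66 in mutant kidneys, against 13.85, 13.88 and 13.91 in Pax8+/Cre kidneys. It remained detected on every mutant array, and its fall of 1.06 (SE 0.11, adjusted p = 0.00025) was smaller than those of Miox and G6pc.

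At the brush border, 10 of 14 tested peptidase genes were lower and 0 higher, with a median change of -0.81. Anpep, aminopeptidase N, had 8.76, 8.72 and 9.14 in mutant kidneys, against 11.01, 11.24 and 11.57 in Pax8+/Cre kidneys. Dpep1, a dipeptidase, fell by 2.22, and Mep1b and Mep1a, the meprin subunits, by 1.98 and 1.35. Dpp4 and Ace, which are peptidases of the same membrane, had changes of -0.26 and -0.20 and did not pass (adjusted p = 0.14 and 0.49). The endocytic receptor and scaffold genes gave 10 lower and 0 higher of 17 tested, with a median of -0.59. Pdzk1, a scaffold of apical transporters, fell by 1.04 and Amn, a partner of cubilin, by 0.71, while Lrp2, which encodes megalin, averaged 5.80 ± 0.19 in mutant and 6.50 ± 0.16 in Pax8+/Cre kidneys (adjusted p = 0.0079).

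Serpina6, the gene of the corticosteroid carrier of plasma, showed the largest fall of all tested genes. Its levels were 4.55, 4.48 and 4.56 in mutant kidneys, against 10.76, 10.50 and 10.95 in Pax8+/Cre kidneys. The mutant values are those of background, and Serpina6 was at least 59.2-fold lower (adjusted p = 1.4e-08). Ttr, the thyroxine carrier transthyretin, had 8.36, 8.33 and 8.28 in mutant kidneys, against 11.61, 11.92 and 11.58 in Pax8+/Cre kidneys, a fall of 3.38 with no overlap. Spp2, a secreted phosphoprotein, fell by 2.54, while Apoa1 and Trf, which encode apolipoprotein A-I and transferrin, rose by 0.78 and 0.67 (adjusted p = 0.035 and 0.0089). In all, 10 of 20 tested members of the plasma carrier list were lower and 2 higher, with 1 higher without any single Pax8+/Cre array. Markers of liver moved with them only in part, with 4 of 8 tested liver genes lower and 2 higher. Without Pax8+/Cre replicate 2 or 3, 2 liver genes were lower and 1 higher. The summed liver level was 10.2 to 10.4 in mutant and 10.74 to 10.84 in Pax8+/Cre kidneys. Of the 20 liver genes on the array, 7 were detected on no array, Alb, Fgb and Cps1 among them.

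Other large falls lay outside these lists. Ugt3a2, a sugar transferase of drug metabolism, was detected on no mutant array and was at least 22.9-fold lower (adjusted p = 1.9e-08). Gsta1 and Gsta2, glutathione transferases with near-identical copies whose signals the array may share, were at least 11.2-fold and 5.64-fold lower. Serpina10, an inhibitor of clotting factors, fell by 3.77 (adjusted p = 1.4e-06). Defb19, a defensin gene, averaged 8.54 ± 0.22 in mutant and 12.02 ± 0.07 in Pax8+/Cre kidneys (SD, n = 3 each). Gm853, Cml4 and BC021785, whose roles in kidney are not described here, were lower by at least 8.32-fold, by 7.66-fold and by at least 7.50-fold. Fatty acid oxidation genes gave 9 lower and 2 higher of 23 tested, and 5 lower without mutant replicate 2 or Pax8+/Cre replicate 3. Without mutant replicate 2 or any single Pax8+/Cre array, 1 of them was higher. Fabp3, which carries fatty acids in the cytosol, and Acox2, a peroxisomal oxidase, fell by 1.65 and 2.20, and Acadm, a mitochondrial dehydrogenase, had a change of -0.31 that did not pass (adjusted p = 0.11). Of 65 tested respiratory chain genes, 11 were lower and 0 higher, among them Cox7a1 and Atp5a1 with falls of 0.90 and 0.87, and 5 were lower without Pax8+/Cre replicate 3.

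**Figure D3:**
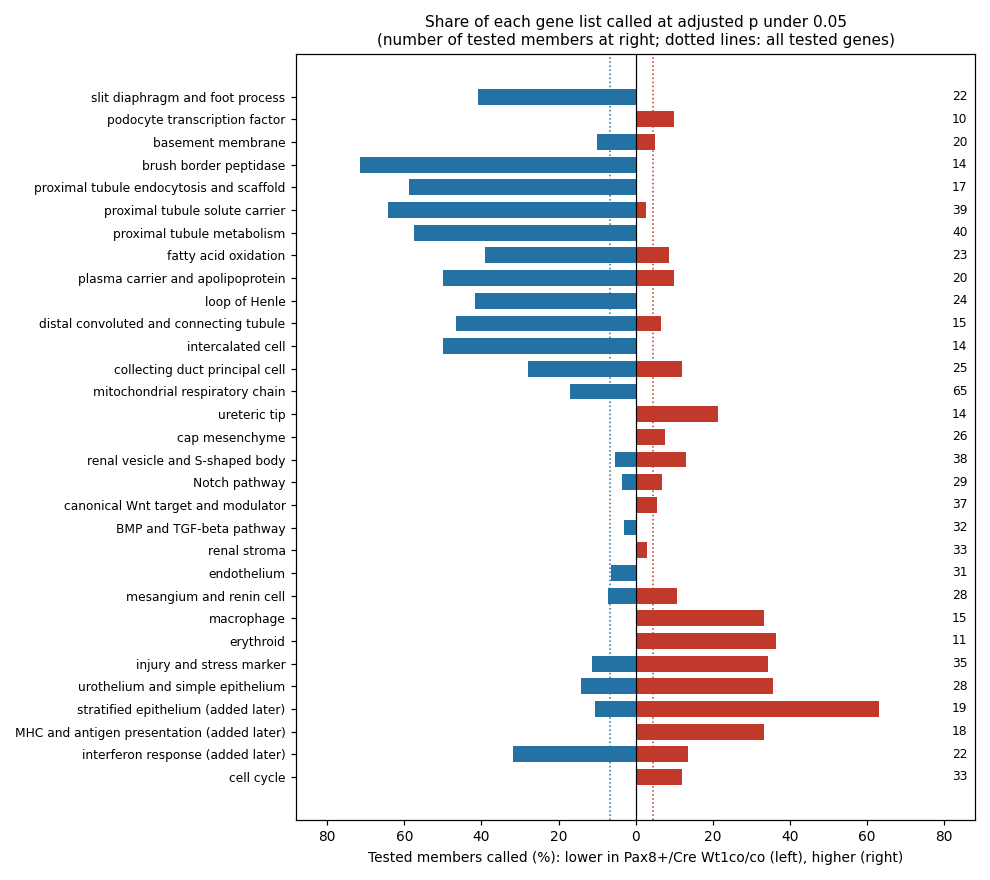
Share of the tested members of each gene list called lower (blue, to the left) or higher (red, to the right) in Pax8+/Cre Wt1co/co kidneys, with the number of tested members at the right and the shares over all tested genes, 6.55% and 4.6%, as dotted lines. Of the lists drawn, the peptidase, solute carrier, scaffold and metabolism lists of the proximal tubule reach furthest to the left.

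Some genes of later segments were lower as well. The loop of Henle list had 10 lower and 0 higher of 24 tested, with a median of -0.31, and 6 lower without mutant replicate 2, Pax8+/Cre replicate 1 or Pax8+/Cre replicate 3. Umod, which encodes uromodulin, averaged 10.49 ± 0.12 in mutant and 10.77 ± 0.14 in Pax8+/Cre kidneys, and Slc12a1, the salt carrier of the thick limb, 11.49 ± 0.04 in mutant and 11.83 ± 0.09 in Pax8+/Cre kidneys (SD, n = 3 each). Neither passed the test (adjusted p = 0.15 and 0.055). Egf, the epidermal growth factor made in the thick limb and distal tubule, fell by 1.33 (adjusted p = 0.0021). In the distal convoluted tubule, where 7 of 15 tested genes were lower and 1 higher (3 lower without mutant replicate 2 or Pax8+/Cre replicate 3, and 4 without Pax8+/Cre replicate 2), Slc12a3, the thiazide-sensitive carrier, fell by 0.80 (SE 0.11, adjusted p = 0.0017). Pvalb, a calcium-binding protein of that segment, went the other way, was detected on no Pax8+/Cre array and was at least 2.86-fold higher in the mutant (adjusted p = 0.00058).

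The collecting duct arises from the ureteric bud and not from the cap mesenchyme, and its genes divided. Aqp2, the vasopressin-regulated water channel of principal cells, had 6.62, 6.76 and 7.05 in mutant kidneys, against 8.99, 8.78 and 8.94 in Pax8+/Cre kidneys. This fall of 2.09 (SE 0.13, adjusted p = 1.2e-05) does not overlap and was larger than those of Aqp3 and Aqp4, the basolateral channels (0.59 and 0.77), and of Scnn1a and Scnn1g, subunits of the sodium channel (0.65 and 0.57). Hsd11b2, which protects these cells from cortisol, averaged 9.15 ± 0.11 in mutant and 9.21 ± 0.26 in Pax8+/Cre kidneys, and the groups overlap. Elf3 and Krt19, epithelial genes of the duct, rose by 0.95 and 1.03, and of 25 tested genes 7 were lower and 3 higher, with 4 lower without mutant replicate 2 and 3 without Pax8+/Cre replicate 3. Elf5, an epithelial factor gene of the duct, fell by 1.09 (adjusted p = 0.00074). Among intercalated cell genes 7 of 14 tested were lower and 0 higher (4 lower without mutant replicate 3, Pax8+/Cre replicate 2 or Pax8+/Cre replicate 3), led by Car15, a membrane carbonic anhydrase, and Slc26a4, the anion exchanger pendrin, with falls of 2.01 and 1.28. Foxi1, the factor that specifies these cells, had a change of -0.01 with overlapping groups (adjusted p = 0.96). All 6 tested aquaporin genes were called, with Aqp1, Aqp2, Aqp3, Aqp4 and Aqp7 lower and Aqp5, a channel of secretory epithelia, higher by 1.32.

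Genes of progenitors and of the first steps of the nephron divided, and their marker genes other than Eya1 did not pass the test. The cap mesenchyme list had a median change of 0.21, with 7.69% of its tested members called. For the renal vesicle and S-shaped body list these were 0.10 and 18.4%, and for all tested genes 0.047 and 11.2%. Six2, which maintains nephron progenitors, had 7.70, 7.70 and 7.64 in mutant kidneys, against 7.54, 7.41 and 7.44 in Pax8+/Cre kidneys. These values do not overlap, but the change of 0.22 (SE 0.09) did not pass the test (adjusted p = 0.18). Eya1, its partner in the progenitors, rose by 0.48 and Uncx, a homeobox gene of the mesenchyme and early nephron, by 0.39 (adjusted p = 0.015 and 0.024), which made 2 higher and 0 lower of 26 tested cap mesenchyme genes. Without mutant replicate 1 this count was 4, without Pax8+/Cre replicate 2 it was 1, and without mutant replicate 2, Pax8+/Cre replicate 1 or Pax8+/Cre replicate 3 it was 0. Cited1, a marker of the least committed progenitors, averaged 9.52 ± 0.30 in mutant and 9.29 ± 0.29 in Pax8+/Cre kidneys (adjusted p = 0.46).

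Lhx1, needed to form the renal vesicle, had a change of 0.08, Wnt4, the signal that starts the transition, 0.22, and Jag1, a Notch ligand, 0.00, with overlapping groups in each case (adjusted p = 0.62, 0.35 and 1). Pax8, of which both groups carry a single working copy, averaged 8.06 ± 0.20 in mutant and 8.26 ± 0.05 in Pax8+/Cre kidneys (SD, n = 3 each, adjusted p = 0.32). Within the renal vesicle and S-shaped body list, 5 of 38 tested genes were higher and 2 lower, with 2 higher without mutant replicate 2 or any single Pax8+/Cre array. Hes5, a Notch target, rose by 0.89 and Npy, a neuropeptide gene of the early nephron, by 0.75 (adjusted p = 0.0031 and 0.004), while Sostdc1, an antagonist of BMP and Wnt ligands, fell by 0.86. In the Wnt list 2 of 37 were higher and 0 lower, a share near the 4.6% of all tested genes. They were Nkd2 and Axin2, feedback genes of the pathway (0.54 and 0.39, adjusted p = 0.012 and 0.028), and the count was 5 without mutant replicate 1, 1 without mutant replicate 2 or Pax8+/Cre replicate 2 and 0 without Pax8+/Cre replicate 3. Of the ureteric tip list 3 of 14 were higher and 0 lower, among them Sox9 with 0.55 (adjusted p = 0.046), and 1 was higher without mutant replicate 2 or any single Pax8+/Cre array, while Wnt11, made at the tip, had a change of -0.03 with overlapping groups.

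Stromal and vascular lists held few calls, and their shares differed. Called members made up 3.03% of the stromal, 6.45% of the endothelial and 17.9% of the mesangial and renin cell list. Over all tested genes the share was 11.2%. The median changes of these lists were -0.01, -0.22 and 0.11, beside 0.047 over all tested genes. Of 33 stromal genes 1 was higher and 0 lower, and Pdgfra and Col1a1 overlapped between the groups. Of 31 endothelial genes 2 were lower and 0 higher. These were Ehd3, an endocytic protein of glomerular endothelium, with a fall of 0.98, and Gja5, a gap junction protein of arteries and renin cells, with a fall of 0.80 (adjusted p = 0.012 and 0.0056). Pecam1 and Cdh5, junction genes of all endothelium, had changes of -0.37 and -0.26 that did not pass. Of 28 genes of mesangial, smooth muscle and renin cells 3 were higher and 2 lower. Des, the muscle filament desmin, rose by 0.69, and Ren1, the renin gene, had a change of -0.29 with overlapping groups (adjusted p = 0.002 and 0.24). Of 33 cell cycle genes 4 were higher and 0 lower, and 0 were higher without Pax8+/Cre replicate 2 or 3, 1 without mutant replicate 2 and 2 without mutant replicate 3 or Pax8+/Cre replicate 1. Of 47 cytosolic ribosomal protein genes 1 was higher. With 1 array left out the stromal, endothelial and mesangial lists had 0 to 2, 0 and 2 to 6 members higher and 0 to 3, 1 to 4 and 0 to 3 lower.

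Among the rises, Sprr2g stood out for its size and tightness. This gene encodes a small proline-rich protein of the cornified envelope, and its levels were 10.64, 10.41 and 10.42 in mutant kidneys, against 6.91, 6.46 and 6.79 in Pax8+/Cre kidneys. The change was 3.77 (SE 0.14, adjusted p = 5.5e-07), and Sprr2f, a near-identical copy whose signal the array may share, rose by 1.80. Col17a1, a hemidesmosomal collagen, had 7.74, 7.40 and 7.61 in mutant kidneys, against 5.63, 5.50 and 5.42 in Pax8+/Cre kidneys. Tff2, a trefoil peptide of mucous epithelia, and Gsdmc3, a gasdermin, rose with them, by 1.99 and 1.67 on the log2 scale. Areg, an EGF receptor ligand, was at least 2.13-fold higher. A list of stratified epithelium genes that was written after these values were seen had 12 higher and 2 lower of 19 tested, and since its members were partly picked for their rise, the count describes them and supports nothing. Trp63 and Krt15, genes of the basal layer, were among the members that did not pass, and Krt14 was lower.

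In the urothelium and simple epithelium list 10 of 28 tested genes were higher and 4 lower. Foxa1, a forkhead factor of urothelium and duct, rose by 1.14, Krt20 by 1.03 and Klf5 by 0.74 (adjusted p = 8.6e-05, 0.00028 and 0.0051). Upk1a and Upk2, which encode uroplakins that define the urothelium, were lower by 0.83 and 1.27 on the log2 scale, as was Krt7, and Upk1b and Krt5 were detected on no array. The summed level of the list was 14.86 to 14.99 in mutant and 14.69 to 14.79 in Pax8+/Cre kidneys, and its part in the rise of Sprr2g was not tested. Of 15 tested claudins, the sealing proteins of tight junctions, 4 were higher and 5 lower. Cldn23, Cldn3, Cldn4 and Cldn7 rose by 2.18, 1.48, 0.84 and 0.81, and Cldn2, the leaky claudin of the proximal tubule, fell by 1.11, together with Cldn10, Cldn12, Cldn15 and Cldn19. Without mutant replicate 2, Pax8+/Cre replicate 1 or Pax8+/Cre replicate 3, 2 claudins were lower, and 3 without Pax8+/Cre replicate 2.

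The chemokine gene Cxcl10 was detected on no Pax8+/Cre array, and its levels were 7.67, 8.43 and 8.61 in mutant kidneys, against 4.92, 5.00 and 4.64 in Pax8+/Cre kidneys. It was at least 9.93-fold higher (adjusted p = 1.7e-05), and Ubd, a ubiquitin-like protein induced by inflammatory cytokines, was at least 5.74-fold higher. Cd74, the invariant chain of MHC class II, had 9.26, 9.41 and 9.38 in mutant kidneys, against 6.82, 6.62 and 6.68 in Pax8+/Cre kidneys, a rise of 2.64 (SE 0.10, adjusted p = 8.4e-07). H2-Aa, H2-Eb1 and H2-Ab1, the class II chains, rose by 1.49, 1.25 and 0.85, and Ciita, their activator, had a change of 0.53 with overlapping groups (adjusted p = 0.12). H2-DMa and H2-DMb2, which help load class II, were the other members called among 18 tested antigen presentation genes, 6 higher and 0 lower, in a list also written after the values were seen, and the class I genes in it did not pass.

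Most other interferon-induced genes did not rise. In a list of them, also written after the values were seen, 3 of 22 tested were higher, namely Cxcl10, Ubd and Irf1, and 7 were lower, among them Ifit3, Ifi27 and Oasl2 with falls of 1.30, 1.22 and 0.90 (adjusted p = 0.00091, 0.0093 and 0.0059). Of 15 tested macrophage genes 5 were higher and 0 lower, among them Mrc1 and Cd68 with 0.82 and 0.83, and 3 were higher without mutant replicate 2, Pax8+/Cre replicate 2 or Pax8+/Cre replicate 3. The macrophage genes summed to 12.82 to 13.1 in mutant and 12.57 to 12.74 in Pax8+/Cre kidneys, Csf1r and Emr1 overlapped between the groups, Ptprc and Cd163 were detected on no array, and the part of macrophages in the class II genes was not tested. Injury genes gave 12 higher and 4 lower of 35 tested, with 6 higher without mutant replicate 2 or Pax8+/Cre replicate 2 and 7 without Pax8+/Cre replicate 1 or 3. The genes lower numbered 1 or 2 with any one of these 4 arrays left out. Vcam1, an adhesion molecule, and Cxcl1, a chemokine, rose by 1.25 and 1.63, and Cd44, a hyaluronan receptor, was detected on no Pax8+/Cre array and was at least 1.68-fold higher, while Hmox1, heme oxygenase, and Spp1, osteopontin, fell by 0.76 and 0.85.

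Hormone genes were also among the largest rises. Trh, the thyrotropin-releasing hormone precursor, had 9.93, 9.78 and 9.91 in mutant kidneys, against 7.89, 7.39 and 7.39 in Pax8+/Cre kidneys. Pdyn, the precursor of dynorphin opioid peptides, had 8.24, 8.02 and 7.84 in mutant kidneys, against 6.00, 5.87 and 5.79 in Pax8+/Cre kidneys. Neither gene overlaps between the groups (changes 2.31 and 2.15, adjusted p = 1.2e-05 and 8.0e-06), and Trh was no longer called in a fit on all 24 arrays. Pdyn lies on the same chromosome as Wt1, 267 protein-coding genes from it. The part in its rise of the chromosome segment around the conditional allele was not tested. Sectm1b, a secreted membrane protein of epithelial cells, and Capn13, a calpain protease, were detected on no Pax8+/Cre array and were at least 4.89-fold and at least 3.95-fold higher. 4930455C21Rik and LOC100045250, whose roles are not given here, rose by 2.36 and 2.06.

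Some of the largest changes belong to genes close to Wt1 on chromosome 2, and of these 2 groups only the mutant kidneys carry the conditional Wt1 allele. How much of the chromosome around that allele came with it was not measured. In the gene order of GRCm38.p6, used here for order only, 130 tested genes lie within 200 protein-coding genes of Wt1 on either side, and 30 of them (23.1%) were called, beside 11.0% of all other tested genes. They were 8 of the 58 tested genes before Wt1 in the assembly (13.8%) and 22 of the 72 after it (30.6%). Changes of over 2-fold made up 10.0% of the near genes and 2.43% of the others, and beyond this window 9.11% of the tested chromosome 2 genes were called. Lrrc57, a leucine-rich repeat protein gene, had 4.41, 4.61 and 4.56 in mutant kidneys, against 9.05, 8.97 and 8.92 in Pax8+/Cre kidneys, and was at least 17.5-fold lower. It was detected on 0 of the 12 arrays of Wt1co/co genotype in the series, those of Wt1co/co kidneys without Cre included, and on 12 of the 12 other arrays. Tmem87a, a Golgi membrane protein gene, averaged 9.63 ± 0.14 in mutant and 6.47 ± 0.33 in Pax8+/Cre kidneys (SD, n = 3 each). Cat, the gene of catalase, rose by 1.43 and Vps39, a vesicle fusion protein gene, by 1.53, and Cd59a and Ccndbp1 fell by 2.02 and 2.16. Tubgcp4 was detected on no mutant array and was at least 4.2-fold lower. Like Lrrc57, it was detected on 0 of 3 arrays of Wt1co/co kidneys without Cre, against 3 of 3 wild type arrays, so both went undetected where Wt1 was not deleted. Cd59a had 330 to 518 intensity units on those Wt1co/co arrays and 1360 to 2160 on the wild type arrays, before any normalization. Ccndbp1 had 77 to 119 units on those Wt1co/co arrays and 327 to 424 on the wild type arrays. Cd44, Elf5, Sord and Gatm, named in lists, also lie in this window. For these 4 genes and for Tmem87a, Cat and Vps39, the loss of Wt1 and the conditional allele's own chromosome segment cannot be told apart in this comparison.

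**Figure D4:**
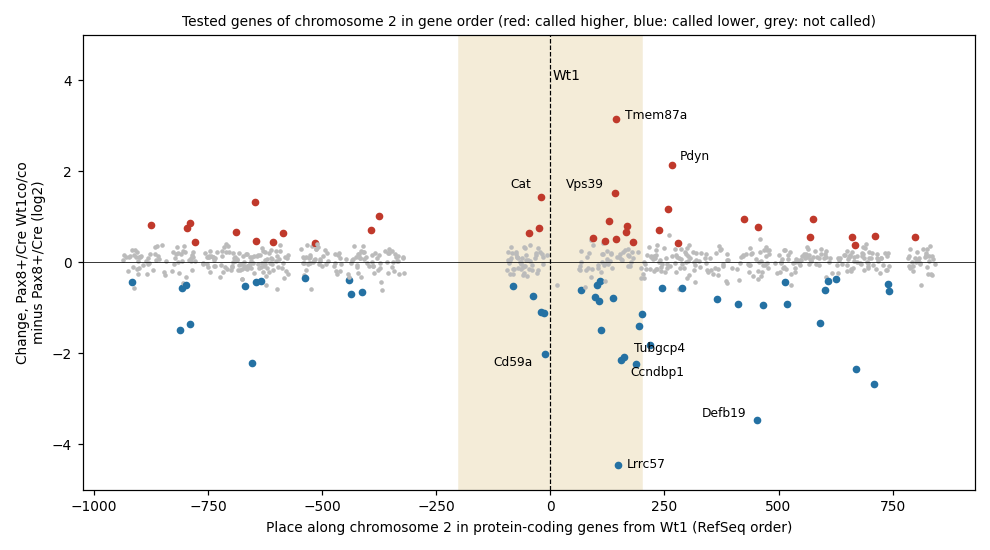
Log2 change, Pax8+/Cre Wt1co/co minus Pax8+/Cre, of each tested gene of chromosome 2 against its place in the gene order, counted in protein-coding genes from Wt1, with the 200 on either side shaded. Lrrc57, at -4.45, a point that background limits (at least 17.5-fold lower), and Tmem87a, at 3.16, lie in the shaded window, and 30 of its 130 tested genes were called.

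Tpmt, a drug-methylating enzyme on chromosome 13, averaged 8.48 ± 0.29 in mutant and 5.81 ± 0.30 in Pax8+/Cre kidneys, a rise of 2.67 (SE 0.18, adjusted p = 2.2e-05).

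The change under the Pax8 driver was then set against that under the Wnt4 driver, with Wnt4+/CreGFP Wt1co/co kidneys compared with Wnt4+/CreGFP kidneys on 6 other arrays and the difference tested over all 12 arrays. This asks whether the effects of deleting Wt1 differ between drivers, and the normalization over 12 arrays gives Pax8 changes that differ slightly from those above. Of 9838 genes tested, 257 (2.61%) differed, 172 with a higher and 85 with a lower change under Pax8. These counts were 92 and 144 with scaling to the 75th percentile, 19 and 8 in a fit on 24 arrays, and 85 to 212 and 27 to 146 with 1 array left out, so which direction was the more frequent depends on the scaling. Serpina6, Cyp27b1 and Lrrc57 were detected on no mutant array under either driver and on all 3 control arrays of each, so their changes are bounded by background and the size of the fall could not be compared. Sprr2g, with 3.66 under Pax8 and 4.00 under Wnt4, and Trh, with 2.25 and 2.62, did not differ by the test (adjusted p = 0.51 and 0.47), nor did Tmem87a, with 3.03 and 3.63.

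Among the proximal tubule genes named above, the difference passed for Miox and Prodh2. Miox was detected on no Wnt4+/CreGFP Wt1co/co array and its mutant means were 5.41 under Pax8 and 5.19 under Wnt4, while its control means were 9.87 and 11.38, so the difference (1.73, SE 0.20, adjusted p = 0.00076) lies mainly in the controls. Prodh2 changed by -3.19 under Pax8 and -4.51 under Wnt4 (difference 1.31, SE 0.16, adjusted p = 0.0011), but its difference was -0.0098 with another background correction, neqc. G6pc, with -3.29 under Pax8 and -4.09 under Wnt4, and Defb19, with -3.47 and -4.53, did not pass (adjusted p = 0.13 and 0.08). Cxcl10 and Cd74 had changes of 3.00 and 2.54 under Pax8 and of 1.55 and 0.85 under Wnt4, and the differences did not pass (SE 0.75 and 0.61, adjusted p = 0.34 and 0.17). Cxcl10 was detected on no control array under either driver and on 2 of 3 Wnt4+/CreGFP Wt1co/co arrays, so its changes are limited by background. Tpmt changed by 2.48 under Pax8 and by -0.77 under Wnt4 (difference 3.25, SE 0.22, adjusted p = 2.4e-05), where it was detected on 0 of 3 mutant and 1 of 3 control arrays. Fcer1g, a signalling subunit of Fc receptors in macrophages, had a change of -0.16 under Pax8 and was detected on no Wnt4+/CreGFP Wt1co/co array and on 3 of 3 Wnt4+/CreGFP arrays.

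**Figure D5:**
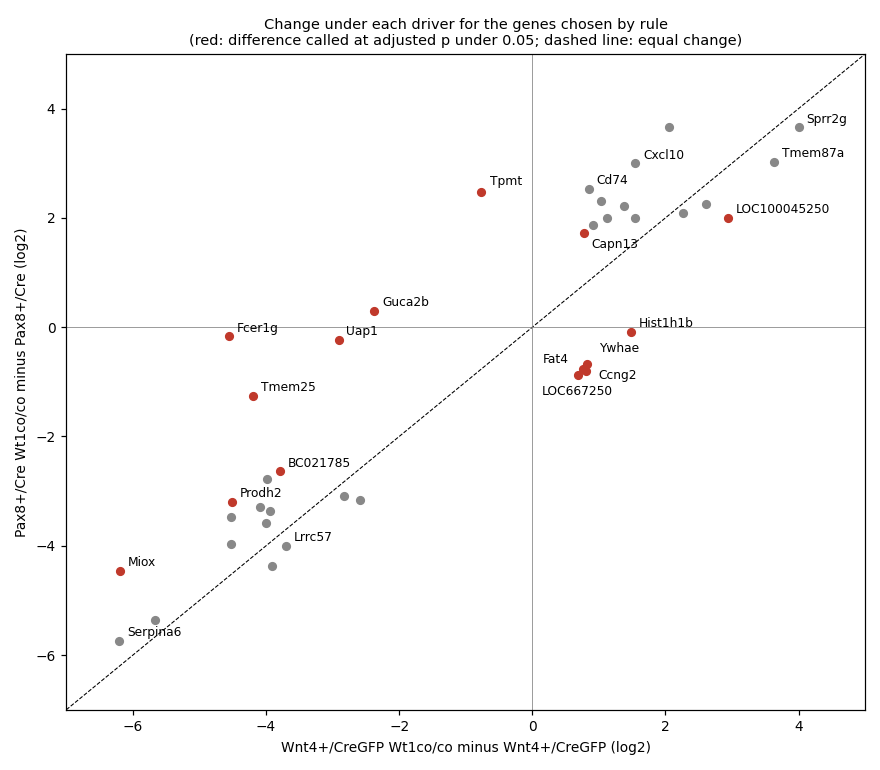
Log2 change under Pax8 (y axis, Pax8+/Cre Wt1co/co minus Pax8+/Cre) against that under Wnt4 (x axis, Wnt4+/CreGFP Wt1co/co minus Wnt4+/CreGFP) for the genes chosen by the naming rule, red where the difference passed the test. Sprr2g lies close to the line of equal change and Tpmt and Fcer1g far above it, and points of genes at background in the mutants, such as Serpina6, are limited by it.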

How the data were processed

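The authors labelled total RNA of E18.5 kidneys (TotalPrep kit) and hybridised it to MouseRef-8 v2 BeadChips, with biological triplicates. The intensities, as deposited, are linear bead signals with 1 value per gene symbol and no background subtraction or normalization. The detection p-values, as deposited, come from a comparison of each signal with control beads that match no transcript. The ratio values, made by the authors in GeneSpring, are relative to the median of 3 control arrays. In both groups replicates 1 and 3 of the ratios match replicates 3 and 1 of the intensities, and the text follows the intensities. The sources used here do not state how several probes of a gene were combined, which chip held each array, or the genome build of the probes.

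Each array's background mean and spread were read from the intensities at detection p of 0.4 to 0.6 and of 0.14 to 0.18. They were removed with normexp, 16 was added, and the 6 arrays were quantile-normalized and log2-transformed (R 4.3.3, limma 3.58.1). The log2 values were fitted with lmFit and eBayes, with group as the single term, 4 residual and 4.97 prior degrees of freedom, and Benjamini-Hochberg adjustment over the 9600 genes. All adjusted p-values come from limma. The standard error of a log2 change had a median of 0.119. The difference between drivers was fitted on 12 arrays (8 residual degrees of freedom), with genes detected on 3 or more.

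For a gene detected on no array of the lower group the fold is a lower bound. There each array counted with the dimmest detected signal or the gene's own signal, whichever was greater. The text names the 15 largest changes in each direction among non-overlapping called genes, up to 6 members of each list by p, fixed markers and, for the drivers, the 5 largest differences in each direction. Other genes, among them list members that did not pass, the neighbours of Wt1 other than Lrrc57 and Tmem87a, and the genes of the 5 later lists, were chosen after their values were seen. The members, the 50 lists and the 5 later ones were chosen with earlier results of these data known, and lists share members. A chromosome was found for 96% of the tested genes through RefSeq symbols and synonyms. Some genes are not reported here, though they are included in the counts. The number of arrays limits the precision. Alternatives were neqc background, no background correction, an offset of 50, scaling to the 75th percentile, the ratio values, no detection filter, detection on all 6 arrays, a fit on all 24 arrays, replicate number as a block, array weights, sex, and each array left out. The fits were tested on simulated data. Plots were made with Python 3.11.15 and matplotlib 3.10.9.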

Additional observations from a re-analysis of the deposited data

Results flagged for a closer look

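The change under Pax8 and the change under Wnt4 differed, by the test of the difference on 12 arrays, for 15 of the genes named by rule. Fcer1g (difference 4.40, SE 0.38, adjusted p = 0.00013) and Tmem25 (2.94, SE 0.30, adjusted p = 0.00047) were detected on no Wnt4+/CreGFP Wt1co/co array and on 3 of 3 Pax8+/Cre Wt1co/co arrays, so these differences are limited by background. Tpmt differed by 3.25, Uap1, an enzyme of sugar nucleotide synthesis, by 2.68, and Guca2b, the uroguanylin gene, by 2.67. Of these, Uap1 had changes of -0.23 under Pax8 and -2.91 under Wnt4, and Guca2b of 0.30 and -2.37.

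Ccng2, an atypical cyclin, had a difference of -1.60, Hist1h1b, a linker histone, of -1.56, LOC667250 of -1.56, Fat4, a giant cadherin, of -1.53, and Ywhae, a 14-3-3 protein gene, of -1.49. Fat4 changed by -0.77 under Pax8 and by 0.76 under Wnt4 (SE of the difference 0.37, adjusted p = 0.047), but under Wnt4 it was detected on 1 of 3 mutant and 0 of 3 control arrays. Hist1h1b was detected on 0 of 3 Wnt4+/CreGFP arrays. Among the genes with the largest changes under Pax8, Miox had a difference of 1.73, Prodh2 of 1.31, BC021785 of 1.16, Capn13 of 0.95 and LOC100045250 of -0.94. BC021785 was detected on no mutant array under either driver and Miox on none under Wnt4, and Capn13 was detected on no control array under either driver and no Wnt4 mutant array, so these differences rest on values at background. Groups of 3 arrays are too small for a test of single outlying arrays.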

How the results depend on the processing

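The 30 genes with the largest changes stayed called in every alternative in which they were tested, except Trh in the fit on 24 arrays. The counts moved more. Genes higher numbered 263 with scaling to the 75th percentile, 133 with the ratio values, 183 in the fit on 24 arrays and 1922 with array weights. Genes lower numbered 568 with the 75th percentile, 202 with the ratio values, 313 on 24 arrays and 1496 with array weights. The share of calls that were higher was 41.3%, against 31.6% with the 75th percentile and 56.2% with array weights, which gave mutant replicates 1, 2 and 3 weights of 0.297, 5.97 and 0.458. Genes over 2-fold higher numbered 22 with neqc, 34 without background correction, 39 with an offset of 50 and 33 on 24 arrays, and genes over 2-fold lower 84 with neqc, 100 with the ratio values and 118 on 24 arrays. With the ratio values the median change was 0.139, against 0.047.

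With 1 array left out, 193 to 603 genes were higher and 407 to 819 lower. The lowest counts came without Pax8+/Cre replicate 3, and 270 were higher without Pax8+/Cre replicate 1, 205 without replicate 2 and 226 without mutant replicate 2. With replicate number as a block, 278 were higher and 503 lower. Same-numbered arrays of both groups had correlations of -0.114, 0.052 and -0.032 after the group means were removed. With so few arrays per group these values cannot settle whether the numbers pair the embryos. On 24 arrays the brush border peptidases had 3 lower, the scaffold list 2, the plasma carriers 2, the loop of Henle 2 the collecting duct list 1, the intercalated cell list 2 and the solute carriers of the proximal tubule 11, while the slit diaphragm list had 8 and the metabolism list 16. Genes higher on 24 arrays numbered 4 in the urothelium list, 2 in the antigen presentation list, 1 each in the macrophage and erythroid lists, 8 in the injury list, 5 in the stratified epithelium list and 0 in the renal vesicle and cap mesenchyme lists. The cause was not tested.

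For the difference between drivers, 92 genes were higher and 144 lower with the 75th percentile, 19 and 8 on 24 arrays, and 118 and 39 with the block. With 1 array left out, 85 to 212 were higher and 27 to 146 lower. The difference turned to -0.0098 for Prodh2 with neqc and to -0.0882 for BC021785 with the 75th percentile. The 3 arrays of each group limit all these counts.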

Other observations

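Some gene groups lay outside the nephron lists. Erythroid genes had 4 of 11 tested higher and 0 lower, and 2 higher without mutant replicate 2 or Pax8+/Cre replicate 3, among them Eraf, which stabilises alpha-globin, with 0.84, while the summed level of the list was 15.01 to 15.11 in mutant and 15.02 to 15.08 in Pax8+/Cre kidneys. S100a9 and S100a8, calcium-binding proteins of neutrophils, fell by 1.05 and 0.84, and the other 7 tested members of that family did not pass. Genes of fat had 2 of 3 tested lower, namely Lpl and Acsl1, which tubule cells also express. Only 1 was lower without mutant replicate 2, Pax8+/Cre replicate 2 or Pax8+/Cre replicate 3. Adipoq and Fabp4 were detected on none of the 6 arrays. Among 21 tested cytochrome P450 genes 7 were lower and 2 higher, and 0 were higher without Pax8+/Cre replicate 2 or 3. Adrenal genes, which would mark attached gland tissue, were detected for 4 of 20, and Star, Cyp11a1 and Nr5a1 were detected on none of the 6 arrays.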
